A study of Rattus norvegicus with 12 samples.

Results

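The 10 genes described here are the suppressors of cytokine signalling *Socs1*, *Socs2* and *Socs3*, the transcription factor *Stat3*, the kinase gene *Pim1*, and the NF-kB regulators *Nfkbia*, *Nfkbiz*, *Tnfaip3*, *Relb* and *Bcl3*. They were chosen by name, as a set of feedback genes of the STAT3 and NF-kB pathways, from a table of 23526 genes. Earlier results of these data were known at that choice. The shares over all genes given below are therefore a background and not an independent test of the set. All 10 had 1 row each in the table, and all 10 passed the filter on low counts, which left 18714 genes for testing. Whole-tissue RNA sequencing had been done on rat lumbar spinal cord, segments L3 to L5, with 3 libraries in each of 4 groups. The groups were sham at day 0 and spinal cord injury (SCI) at days 3, 7 and 14, and the design set out to profile expression in an acute stage (day 3) and a subacute stage (days 7 and 14). The labels give neither the level nor the kind of injury, nor the strain, sex or age, nor whether the libraries of a group came from separate animals. The p-values therefore measure only how far these libraries differ, and that spread may be technical. Sham tissue was taken at day 0 alone, and each comparison with sham uses the same 3 sham libraries.

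Cytokines of the interleukin-6 family bind receptors that share the signal chain gp130, and the Janus kinases (JAKs) bound to these receptors phosphorylate STAT3, which then enters the nucleus and switches on genes. *Socs3* is among those genes, and its protein blocks the receptor and its kinases, so that the signal limits itself. NF-kB is held in the cytoplasm by IkB proteins such as the product of *Nfkbia* and is set free by the IkB kinase (IKK) when tumour necrosis factor, interleukin-1 or Toll-like receptors signal. NF-kB in turn raises *Nfkbia* and *Tnfaip3*, whose proteins end the signal. In the injured cord, STAT3 is best known for its role in the reaction of astrocytes, and NF-kB for the inflammatory response of glia and blood-derived cells.

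The start regions of these genes can be read beside their values. RefSeq start windows of 300 bases on the rat assembly GRCr8 were found for 8 of the 10 genes, all but *Socs2* and *Relb*. Both strands were searched for 3 patterns: the STAT palindrome TTCNNNGAA, the 10-letter kappa B consensus, and its narrower form, in which GGGA is followed by any base and then by TTTCC, and every match of which is also a match of the consensus. The kappa B consensus was found in 7 of the 8 windows, all but that of *Stat3*, against 7.51% of 33469 rat windows of the same length. The narrow form was found in 3 of the 8, those of *Nfkbia*, *Nfkbiz* and *Tnfaip3*, against 0.362% of all windows. The STAT palindrome was found in 1 of the 8, that of *Socs1*, against 8.87% of all windows. A match is a description of the letters and does not show binding. The 5 windows below were picked because they belong to *Socs3*, the gene with the largest day 3 difference, and to the NF-kB regulators with a match, and capitals mark the kappa B consensus matches. They lie at chr10:103694719-103695018 on the minus strand (*Socs3*), chr6:78597023-78597322 on the minus strand (*Nfkbia*), chr11:58251471-58251770 on the plus strand (*Nfkbiz*), chr1:15543930-15544229 on the minus strand (*Tnfaip3*) and chr1:88613506-88613805 on the minus strand (*Bcl3*).
Socs3: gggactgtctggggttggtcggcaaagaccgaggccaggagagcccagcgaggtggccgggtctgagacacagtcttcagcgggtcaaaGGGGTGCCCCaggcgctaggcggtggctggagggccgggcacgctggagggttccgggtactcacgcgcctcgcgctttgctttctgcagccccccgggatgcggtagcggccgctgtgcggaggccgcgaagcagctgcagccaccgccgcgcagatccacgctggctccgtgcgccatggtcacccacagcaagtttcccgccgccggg
Nfkbia: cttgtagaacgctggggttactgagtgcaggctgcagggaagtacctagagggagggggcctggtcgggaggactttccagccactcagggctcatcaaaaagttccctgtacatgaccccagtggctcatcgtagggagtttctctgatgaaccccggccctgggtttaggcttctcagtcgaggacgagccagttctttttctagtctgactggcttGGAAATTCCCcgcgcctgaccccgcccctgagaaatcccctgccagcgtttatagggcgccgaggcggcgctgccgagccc
Nfkbiz: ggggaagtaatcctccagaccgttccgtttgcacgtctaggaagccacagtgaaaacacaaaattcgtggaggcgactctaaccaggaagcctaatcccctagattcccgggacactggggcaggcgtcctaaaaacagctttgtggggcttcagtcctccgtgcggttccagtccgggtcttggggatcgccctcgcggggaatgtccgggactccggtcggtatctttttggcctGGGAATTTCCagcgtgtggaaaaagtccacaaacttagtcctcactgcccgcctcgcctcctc
Tnfaip3: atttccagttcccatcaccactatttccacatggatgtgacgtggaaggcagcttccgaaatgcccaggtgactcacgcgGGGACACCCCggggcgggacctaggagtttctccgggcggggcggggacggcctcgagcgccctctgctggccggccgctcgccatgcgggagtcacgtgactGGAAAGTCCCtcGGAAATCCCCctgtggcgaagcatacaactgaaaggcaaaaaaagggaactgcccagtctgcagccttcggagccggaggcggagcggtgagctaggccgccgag
Bcl3: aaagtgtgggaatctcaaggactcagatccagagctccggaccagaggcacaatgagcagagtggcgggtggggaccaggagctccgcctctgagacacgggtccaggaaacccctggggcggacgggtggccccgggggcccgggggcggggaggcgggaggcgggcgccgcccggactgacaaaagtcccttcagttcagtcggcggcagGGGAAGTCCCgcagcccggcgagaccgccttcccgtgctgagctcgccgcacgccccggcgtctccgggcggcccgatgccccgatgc
Counted from the start site of the window, the first base of the match lay 31 bases upstream in *Nfkbia*, 13 bases upstream in *Nfkbiz*, 38 bases upstream in *Bcl3* and 161 bases upstream in *Socs3*. *Tnfaip3* held 3 matches, 170, 67 and 55 bases upstream. In *Pim1* the match began at the start site itself and ran into the gene. The *Socs3* window is not at the outermost annotated start: its start site lies 1207 bases inside the gene. That of *Nfkbia* lies 235 bases inside and that of *Stat3* 154 bases. For these genes, a match or its absence does not describe the region before the outermost start. The genes lie on chromosomes 10 (*Socs1*, *Socs3*, *Stat3*), 7 (*Socs2*), 20 (*Pim1*), 6 (*Nfkbia*), 11 (*Nfkbiz*) and 1 (*Tnfaip3*, *Relb*, *Bcl3*). *Relb* and *Bcl3* are 186 kb apart on GRCr8. By the coordinates of the deposited table, none of the 10 overlapped another gene of the table.

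Total counts per library were between 63.0 and 79.1 in units of 1e+06 counts, so that every gene of the set except *Socs1* had at least 101 counts in every library. Levels are given as CPM, the counts per 1e+06 counts of the library, scaled between libraries with TMM factors. Differences are log2 fold changes from edgeR's quasi-likelihood test, with p-values adjusted by the Benjamini-Hochberg method over all 18714 genes and called below 0.05. Several libraries stood apart in markers of other tissue or cells. The summed level of 9 neuron markers was 376, 6132 and 320 CPM in SCI day 3 replicates 1, 2 and 3, against 8345, 5918 and 8145 CPM in the sham libraries, and it was between 4522 and 8257 CPM at days 7 and 14. No neuron marker was at 0 in any library. The share of counts from mitochondrial genes was 5.62% and 5.43% in the same SCI day 3 replicates 1 and 3, and it was 10.2% in replicate 2. *Prx*, the periaxin gene of Schwann cells, was highest in SCI day 3 replicate 3, at 4150.1 CPM, and next in sham replicate 2, at 2981 CPM, against 147 to 2216 CPM in the other 10 libraries. *Scn10a*, a channel gene of sensory ganglion neurons, stood at 19.6 CPM in SCI day 3 replicate 2, and at 79.6 and 131 CPM in SCI day 14 replicates 1 and 2, against at most 1.05 CPM in the other 9 libraries. Red cell transcripts were high in SCI day 7 replicate 1, and *Acta1*, of skeletal muscle, was high in SCI day 7 replicate 2. The 6 neutrophil markers summed to 2.67, 70.4 and 2.41 CPM in sham replicates 1, 2 and 3. At day 3 they summed to 30.8, 74.3 and 23.0 CPM. Sham replicate 2 was also the highest sham library in 7 of the 10 genes, an order not counted over all genes. The part of these markers in the sham levels was not tested. In bulk tissue, fewer cells of a type and less RNA per cell cannot be told apart.

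At day 3, 5 of the 10 genes rose against sham: *Socs3*, *Bcl3*, *Pim1*, *Nfkbia* and *Stat3*. Over all genes tested, 5.5% were called higher in the same comparison. No gene of the set was called lower, against 1.2% of all genes tested. DESeq2 and limma voom each called 7 of the 10 higher, where 17.8% and 17.7% of the genes they tested were called higher. At an unadjusted p below 0.05 edgeR had 7 of the 10 higher, against 20.6% of all genes. With only the SCI day 3 and sham libraries in the fit, edgeR called none of the 10 and 1 gene of the table, and *Socs3* had an adjusted p of 0.0712. In 8 of the 10, all but *Socs2* and *Tnfaip3*, every SCI day 3 library lay above every sham library, against 19% of all genes tested. The median log2 fold change of the 10 was 1.84, and that of all genes tested was 0.03.

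*Socs3*, which encodes the brake on gp130 receptors, stood at 192, 96.0 and 359 CPM in the SCI day 3 libraries, against 3.21, 5.44 and 3.23 CPM in the sham libraries. The groups were far apart, and even the lowest SCI day 3 library, replicate 2, was well above every sham library. Its log2 fold change of 5.76 ± 1.01 (SE) was the largest of the 10 (adjusted p = 0.0324, edgeR). *Stat3*, the transcription factor that this brake restrains, had 384, 224 and 465 CPM at day 3, against 115, 95.2 and 103 CPM in sham. The sham libraries lay close together, and again replicate 2 was the lowest at day 3 without reaching them. The log2 fold change of *Stat3* was 1.78 ± 0.33 (adjusted p = 0.0332, edgeR). *Pim1*, a survival kinase gene and known STAT target, had 13.1, 5.20 and 15.7 CPM at day 3, against 1.64, 2.86 and 2.17 CPM in sham. SCI day 3 replicate 2 came nearer to sham than the other two. The log2 fold change was 2.35 ± 0.51 (adjusted p = 0.0369, edgeR).

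The other *Socs* genes did not pass the test. *Socs1*, a brake on interferon signalling that acts on the JAKs directly, had 1.34, 1.24 and 2.21 CPM at day 3, against 0.437, 1.18 and 1.22 CPM in sham. The groups nearly touched without overlapping, and the difference was a log2 fold change of 0.75 ± 0.56 (adjusted p = 0.349, edgeR). *Socs2*, a brake on growth hormone signalling, had 7.59, 3.55 and 5.51 CPM at day 3, against 4.96, 3.76 and 3.05 CPM in sham. These groups overlapped, since SCI day 3 replicate 2 lay between the sham libraries, and the log2 fold change was 0.50 ± 0.33 (adjusted p = 0.297, edgeR).

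Among the NF-kB regulators, *Nfkbia*, which encodes the inhibitor IkB alpha, had 94.2, 48.5 and 119 CPM at day 3, against 15.6, 30.3 and 23.9 CPM in sham. All SCI day 3 libraries lay above all sham libraries, with a log2 fold change of 1.91 ± 0.42 (adjusted p = 0.0369, edgeR). *Bcl3*, an atypical IkB protein that works in the nucleus with NF-kB subunits p50 and p52, had 24.1, 18.5 and 45.9 CPM at day 3, against 2.35, 3.95 and 1.70 CPM in sham. The gap between the groups was wide, and the log2 fold change of 3.47 ± 0.75 was the second largest of the set (adjusted p = 0.0369, edgeR). *Nfkbiz*, which encodes the nuclear coactivator IkB zeta, had 33.6, 20.2 and 41.4 CPM at day 3, against 3.66, 6.84 and 4.67 CPM in sham. The groups did not overlap, yet the log2 fold change of 2.65 ± 0.72 missed the threshold (adjusted p = 0.0526, edgeR). It was called by DESeq2 (adjusted p = 0.00204) and by limma voom (adjusted p = 0.0133).

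*Relb*, the NF-kB subunit of the non-canonical branch, had 13.5, 9.88 and 19.97 CPM at day 3, against 5.47, 7.87 and 5.20 CPM in sham. The groups lay near each other without overlapping. With a log2 fold change of 1.22 ± 0.37 (adjusted p = 0.0642, edgeR), *Relb* too missed the threshold but was called by DESeq2 (adjusted p = 0.0143) and by limma voom (adjusted p = 0.0130). *Tnfaip3*, which encodes the ubiquitin-editing brake A20, had 13.6, 7.61 and 30.8 CPM at day 3, against 8.23, 9.59 and 7.17 CPM in sham. The groups overlapped, with SCI day 3 replicate 2 inside the sham range and replicate 3 well above it. Its log2 fold change was 1.06 ± 0.49 (adjusted p = 0.148, edgeR).

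**Figure D1:**
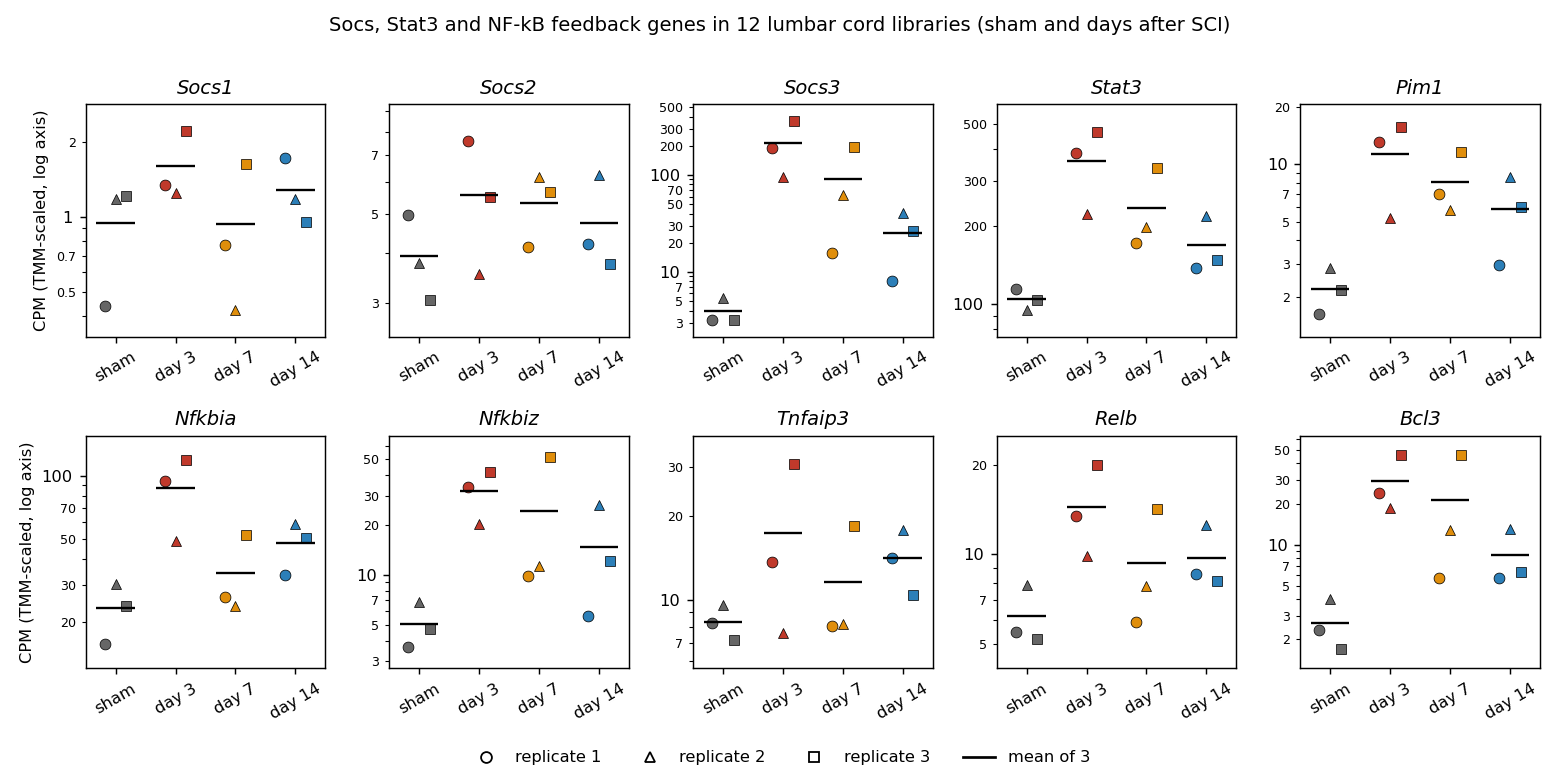
CPM of each of the 10 genes on log axes, 1 panel per gene, in sham and at SCI days 3, 7 and 14; points are libraries, with a shape for each replicate, and bars are means of 3. *Socs3* at day 3 lay between 96.0 and 359 CPM, against 3.21 to 5.44 CPM in sham, while *Socs2* overlapped between the groups.

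Within day 3 the libraries fell into nearly the same order for the whole set. Replicate 2 was the lowest of the 3 in all 10 genes, and replicate 3 was the highest in 9 of the 10, *Socs2* being the exception. How many of all genes followed this order was not counted. The median log2 difference of the 10 genes from the sham mean was 1.95, 1.08 and 2.26 in SCI day 3 replicates 1, 2 and 3. Replicates 1 and 3 are the libraries whose neuron markers summed to 376 and 320 CPM and whose mitochondrial share was low. In replicate 2 the neuron markers summed to 6132 CPM, inside the sham range. Endothelial markers summed to 1229, 430 and 801 CPM in SCI day 3 replicates 1, 2 and 3, against 219, 276 and 182 CPM in sham, and microglia and macrophage markers to 1118, 274 and 339 CPM, against 243, 176 and 220 CPM. The 7 astrocyte markers summed to 5469.6 CPM, 4523 CPM and 1837 CPM in the same SCI day 3 libraries, against 4926, 2704 and 4995 CPM in sham, and overlapped. *Gfap* made up 4720, 3142 and 1305 CPM of these sums at day 3, and 2328, 1004 and 2346 CPM in sham. Without *Gfap*, the other astrocyte markers together were lower in every SCI day 3 library than in every sham library. The part of these differences in the results was not tested.

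The count of 5 depended on single libraries. With replicates 1 and 3 of day 3 left out, a setting chosen after the values were seen, replicate 2 stood alone against sham, and it was assumed to vary like the other groups. No gene of the set was then called by edgeR, and 1 gene of the table was. The log2 fold changes of the remaining library were 4.60 for *Socs3*, 2.80 for *Bcl3*, 1.998 for *Nfkbiz*, 1.23 for *Pim1*, 1.10 for *Stat3* and 1.06 for *Nfkbia*. Those of *Tnfaip3* and *Socs2* were -0.13 and -0.14 in that fit, below the sham level. With SCI day 3 replicate 2 left out, 8 of the 10 were called, *Nfkbiz*, *Tnfaip3* and *Relb* being added, while the calls over all genes grew as well, to 3659 higher and 3428 lower of 19084 tested. With sham replicate 2 left out, *Socs3* alone was called. None was called without sham replicate 1, sham replicate 3, SCI day 3 replicate 1, SCI day 3 replicate 3, SCI day 7 replicate 2 or SCI day 14 replicate 3. The calls over all genes changed from fit to fit too, between 1 and 7087 with each of the 12 libraries left out. A count of 0 among the 10 is to be read beside that range. Over the 12 fits that each left out 1 library, the log2 fold change of *Socs3* stayed between 5.18 and 6.12, that of *Bcl3* between 3.00 and 3.86 and that of *Stat3* between 1.54 and 2.02.

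**Figure D2:**
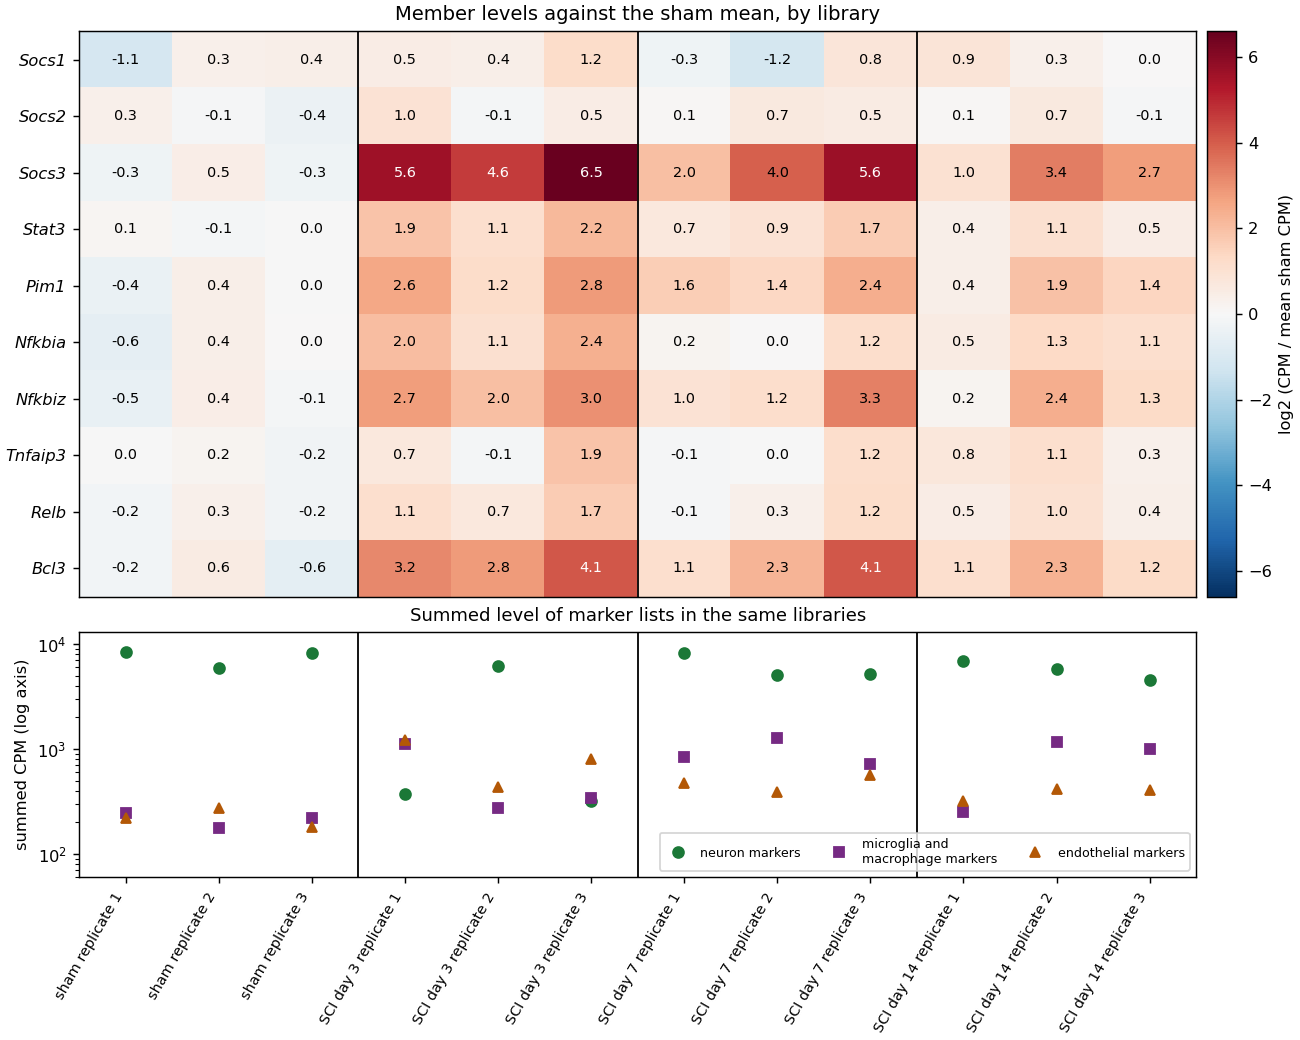
Upper panel, log2 ratio of each library's CPM to the sham mean for the 10 genes (colour and printed value), with libraries in columns; lower panel, summed CPM of 3 marker lists in the same libraries on a log axis. SCI day 3 replicates 1 and 3, where neuron markers summed to 376 and 320 CPM, hold the strongest colours of day 3, and *Socs3* is above the sham mean in every SCI library.

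At day 7, edgeR called none of the 10 genes, and 0.016% of all genes tested were called higher. At an unadjusted p below 0.05, 5 of the 10 were higher, against 7.76% of all genes. The same 5 genes did not overlap sham, against 12.8% of all genes: *Socs3*, *Stat3*, *Pim1*, *Nfkbiz* and *Bcl3*. DESeq2 called these 5 higher, where 2.6% of the genes it tested were called higher, and limma voom called *Stat3* and *Pim1*, where 1.39% were. The median log2 fold change of the set was 0.88, against -0.02 for all genes tested. The summed astrocyte markers were 10049.9, 10797 and 8749 CPM in the day 7 libraries, against 4926, 2704 and 4995 CPM in sham, without overlap. Most of that sum was *Gfap*, at 7563, 8364 and 7027 CPM, against 2328, 1004 and 2346 CPM in sham. The other astrocyte markers together overlapped sham, and *Gfap* is also on the list of STAT3 targets. Endothelial markers, at 478, 387 and 563 CPM at day 7, lay above sham without overlap. So did microglia and macrophage markers, at 844, 1286 and 712 CPM. No astrocyte marker was at 0 in any library, and the part of all these markers in the result was not tested.

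*Socs3* had 15.6, 61.9 and 197 CPM at day 7, against 3.21, 5.44 and 3.23 CPM in sham. Replicate 3 held 12.6 times the level of replicate 1, the widest spread of the set in any group, and every library was above sham. The log2 fold change was 4.53 ± 0.95 (adjusted p = 0.241, edgeR). *Bcl3* spread in the same way, with 5.71, 12.8 and 45.8 CPM at day 7, against 2.35, 3.95 and 1.70 CPM in sham. Its log2 fold change was 3.00 ± 0.74 (adjusted p = 0.251, edgeR). *Nfkbiz* had 9.83, 11.3 and 51.2 CPM at day 7, against 3.66, 6.84 and 4.67 CPM in sham. Here replicate 3 alone lay far above the others, and the log2 fold change was 2.25 ± 0.71 (adjusted p = 0.344, edgeR).

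*Stat3* and *Pim1* varied less between the day 7 libraries. *Stat3* had 172, 199 and 336 CPM at day 7, against 115, 95.2 and 103 CPM in sham, and *Pim1* had 6.96, 5.74 and 11.5 CPM, against 1.64, 2.86 and 2.17 CPM. Their log2 fold changes were 1.17 ± 0.32 and 1.86 ± 0.50 (adjusted p = 0.280 and 0.269, edgeR). *Nfkbia* had 26.3, 23.7 and 52.3 CPM at day 7, against 15.6, 30.3 and 23.9 CPM in sham, and replicates 1 and 2 lay inside the sham range. *Tnfaip3*, *Relb*, *Socs1* and *Socs2* overlapped sham too, with log2 fold changes of 0.48, 0.59, -0.01 and 0.44. Replicate 3 was the highest day 7 library in 9 of the 10 genes. It was above the highest sham library in all 10, while replicate 1 was in 5 and replicate 2 in 6, and this was not counted over all genes. Its neuron markers summed to 5186 CPM, close to the 5107 CPM of replicate 2, and its microglia and macrophage markers were the lowest of day 7, at 712 CPM against 844 and 1286 CPM in replicates 1 and 2.

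At day 14, edgeR again called none of the 10, and 0.016% of all genes tested were called higher. At an unadjusted p below 0.05, 4 of the 10 were higher, against 6.43% of all genes, and neither DESeq2 nor limma voom called any, where they called 1.04% and 0.0481% of all genes higher. In 7 of the 10 the day 14 libraries all lay above sham, against 9.37% of all genes. The exceptions were *Socs1*, *Socs2* and *Nfkbiz*. The median log2 fold change of the set was 0.90, against 0.01 for all genes tested.

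*Socs3* had 7.99, 40.8 and 26.4 CPM at day 14, against 3.21, 5.44 and 3.23 CPM in sham. Replicate 1 was nearest to sham, though still above it. The log2 fold change was 2.66 ± 0.88 (adjusted p = 0.594, edgeR). *Stat3* had 138, 220 and 149 CPM at day 14, against 115, 95.2 and 103 CPM in sham, a log2 fold change of 0.69 ± 0.32 (adjusted p = 0.679, edgeR). *Nfkbia* had 33.6, 58.5 and 50.3 CPM at day 14, against 15.6, 30.3 and 23.9 CPM in sham, with no overlap. Unlike the day 7 libraries, all 3 were above the highest sham library, and the log2 fold change was 1.03 ± 0.41 (adjusted p = 0.630, edgeR). *Pim1* had 2.95, 8.58 and 5.95 CPM at day 14, and *Bcl3* had 5.72, 13.2 and 6.33 CPM, against highest sham libraries of 2.86 and 3.95 CPM. Replicate 1 of *Pim1* thus lay only just above sham. Their log2 fold changes were 1.39 and 1.66 (adjusted p = 0.609 and 0.652, edgeR). *Nfkbiz* had 5.65, 26.2 and 12.1 CPM at day 14 and overlapped sham at its lowest library. *Tnfaip3* had 14.1, 17.9 and 10.4 CPM and *Relb* had 8.57, 12.6 and 8.13 CPM, against highest sham libraries of 9.59 and 7.87 CPM. *Tnfaip3* thus lay wholly above sham at day 14, which it did not at days 3 and 7, but its log2 fold change of 0.76 ± 0.49 did not pass (adjusted p = 0.824, edgeR). Replicate 2 was the highest day 14 library in 9 of the 10 genes, an order not counted over all genes. It is one of the 2 day 14 libraries with *Scn10a*, and its microglia and macrophage markers summed to 1156 CPM, against 253 and 1006 CPM in replicates 1 and 3. Its astrocyte markers summed to 7164 CPM, against 2967 and 4553 CPM in those replicates. *Gfap* made up 5274 CPM of its sum, against 1243 and 2589 CPM of theirs.

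**Figure D3:**
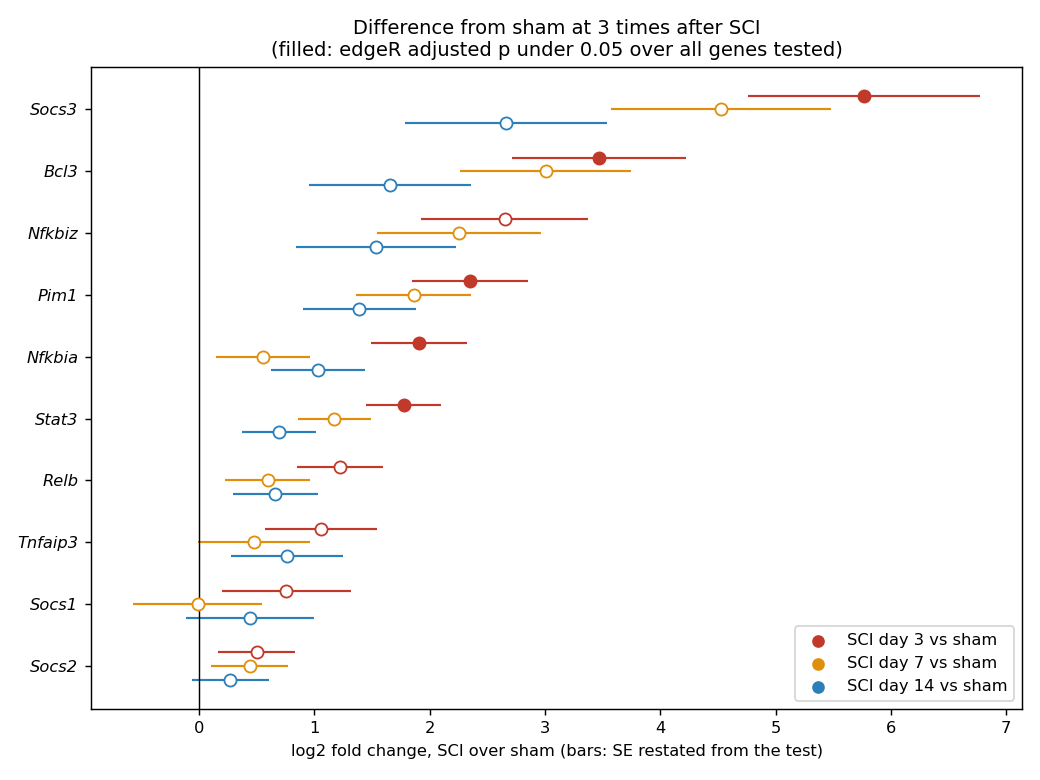
Log2 fold change with its SE for each gene at SCI days 3, 7 and 14 against sham, from edgeR's quasi-likelihood test; filled points are those with an adjusted p below 0.05. Filled points are found at day 3 alone, for 5 genes, and *Socs3* has the largest value at each day, at 5.76, 4.53 and 2.66.

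Between SCI days, edgeR called no gene of the table (0% in each of the 3 comparisons), and so none of the 10. At an unadjusted p below 0.05, 1 of the 10 was lower at day 7 than at day 3, *Nfkbia*, where 9.48% of all genes were lower. Its log2 fold change was -1.36 ± 0.41 (adjusted p = 0.323, edgeR), and its day 7 libraries reached into the day 3 range with replicate 3. The *Socs3* difference of -1.24 ± 0.83 was within the spread of the libraries (adjusted p = 0.435, edgeR). DESeq2 and limma voom called none of the 10 between these days, where they called 0.63% and 0.00534% of all genes lower.

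At day 14 against day 3, 3 of the 10 were lower without overlap, *Socs3*, *Bcl3* and *Stat3*, against 9.43% of all genes. The same 3 had an unadjusted p below 0.05, against 11% of all genes. *Socs3* had a log2 fold change of -3.10 ± 0.89 (adjusted p = 0.194, edgeR), and *Stat3* one of -1.08 ± 0.32 (adjusted p = 0.199, edgeR). Both were called by DESeq2 (adjusted p = 0.00744 and 0.0333), where 4.7% of the genes it tested were called lower. *Bcl3* had a log2 fold change of -1.81 ± 0.70 (adjusted p = 0.239, edgeR) and was not called by DESeq2 or limma voom. Limma voom called none of the 10, and it called 0% of all genes lower. At day 14 against day 7, none of the 10 had an unadjusted p below 0.05, where 2.24% of all genes were higher and 1.42% lower. Neither DESeq2, which called 0.162% of all genes higher and 0.108% lower, nor limma voom, which called 0% lower, called any of the 10. The range of log2 fold changes was from -1.87 for *Socs3* to 0.48 for *Nfkbia*.

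Levels of different genes are compared here in the deposited FPKM values, which are scaled by gene length. In sham, *Stat3* was the highest of the 10, at 17.7 ± 1.24 FPKM, followed without overlap by *Nfkbia* at 10.9 ± 3.66 FPKM (SD, n = 3 each). *Relb* came next at 2.56 FPKM, again without overlap, and from there to *Tnfaip3* at 1.04 FPKM each neighbour overlapped the next. *Socs3* was in that lower run, seventh of the 10, at 1.24 ± 0.43 FPKM, and *Socs1* was last, at 0.672 FPKM. At day 3, *Socs3* was the first of the 10 at 68.7 ± 40.1 FPKM, with a range that overlapped that of *Stat3* at 62.3 ± 20.1 FPKM. *Nfkbia* followed at 41.5 ± 16.2 FPKM, and *Bcl3*, at 15.8 FPKM, *Pim1*, at 8.38 FPKM, *Nfkbiz*, at 7.49 FPKM, and *Relb*, at 6.08 FPKM, made up the middle, each overlapping its neighbour. *Socs2*, *Tnfaip3* and *Socs1* came last at 2.90, 2.19 and 1.15 FPKM, and the step from *Relb* to *Socs2* had no overlap. At day 7, *Stat3* and *Socs3* had means of 41.3 and 29.7 FPKM with overlapping libraries. At day 14, *Stat3* and *Nfkbia*, at 29.5 and 22.7 FPKM, lay above *Socs3* at 8.12 FPKM, and *Nfkbia* and *Socs3* did not overlap.

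The ratio of *Socs3* to *Stat3* FPKM within a library puts the brake beside the factor it restrains. It was 0.920, 0.791 and 1.42 at day 3, against 0.0514, 0.105 and 0.0575 in sham. At day 7 it ranged widely, being 0.167, 0.574 and 1.08. At day 14 it was 0.107, 0.343 and 0.327, and the lowest of these touched the highest sham library without passing below it. This ratio is given as a description, without a test.

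**Figure D4:**
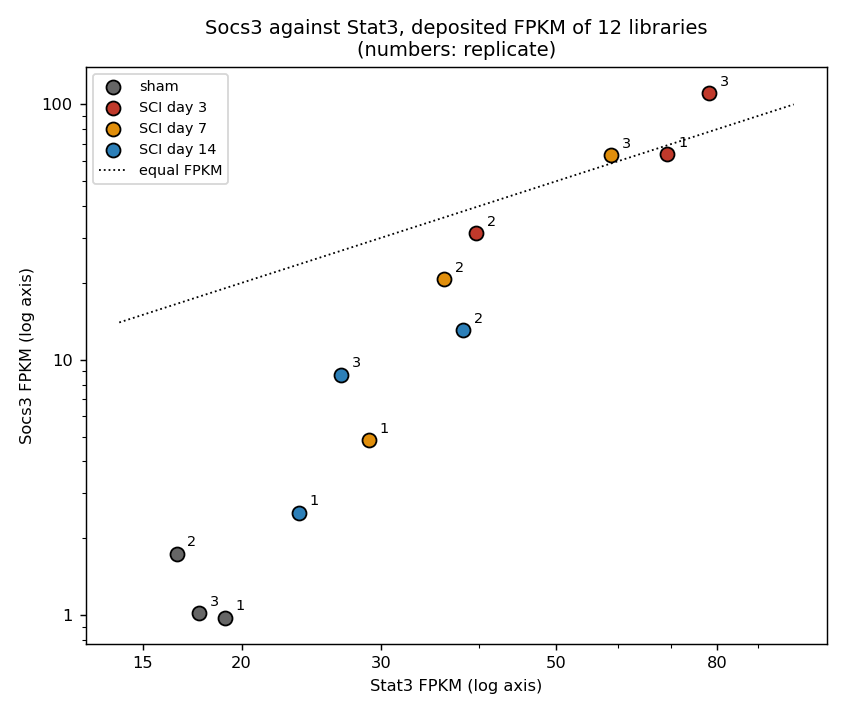
*Socs3* FPKM (vertical, log axis) against *Stat3* FPKM (horizontal, log axis), 1 point per library coloured by group and numbered by replicate, with a dotted line where both are equal. The SCI day 3 libraries lie at ratios of 0.791 to 1.42, the sham libraries at 0.0514 to 0.105, and the day 7 libraries at 0.167 to 1.08, the highest of them inside the day 3 range.

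The genes with the most similar pattern over the 12 libraries were found by the root mean square difference of log2 CPM, after each gene's own mean was taken away, among 13736 genes with a mean of at least 1 CPM. For *Socs3*, whose own root mean square spread was 2.28, they were *Csf2rb* (0.53), *Tnfaip6* (0.73) and *Cebpd* (0.74). For *Bcl3* they were *Adamts1* (0.38), *Birc3* (0.43) and *Cebpd* (0.44), and for *Stat3* they were *Midn* (0.11), *Tmem100* (0.17) and *Il13ra1* (0.18). For *Relb*, *Nfkb2* was the nearest gene, at 0.14. For *Nfkbia* it was *Mafk* (0.25), for *Nfkbiz* *Gadd45g* (0.37), for *Pim1* *Cp* (0.25) and for *Tnfaip3* *Edn3* (0.22). For *Socs1* it was *Slit3* (0.31) and for *Socs2* *Plekho2* (0.16). Within the set, *Tnfaip3* and *Relb* were the closest pair, at 0.29, and *Socs1* and *Socs3* the farthest apart, at 2.11. All points of these patterns share the 12 libraries, including the libraries that stood apart.

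The genes around the 10 in both pathways were read from 11 lists chosen by name, also with earlier results of these data known. At day 3, where 5.5% of all genes tested were called higher, no list gene was called lower. The lists that held most calls were the known targets. Of 15 tested targets of STAT3, 7 rose, with a list median log2 fold change of 2.19. *Myc*, a growth regulator, had a log2 fold change of 3.95, *Timp1*, an inhibitor of matrix proteases, of 4.44, and *Mcl1*, a survival factor, of 2.03 (adjusted p = 0.0324 each, edgeR). *Timp1* had 227, 84.8 and 428 CPM at day 3, against 5.57, 22.02 and 6.40 CPM in sham. Its lowest day 3 library was replicate 2, as in all 10 genes of the set. Of 19 tested targets of NF-kB, 6 rose, with a median of 2.67. *Ptgs2*, which encodes the inducible cyclooxygenase, had a log2 fold change of 2.71 (adjusted p = 0.0324, edgeR), *Ccl2*, a monocyte attractant, of 6.36 (adjusted p = 0.0369, edgeR), and *Birc3*, an inhibitor of cell death, of 3.16 (adjusted p = 0.0386, edgeR).

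Upstream of *Stat3*, 2 ligands, 1 receptor and 1 kinase gene passed at day 3, where 5.5% of all genes tested were called higher. A single call in a list of 7 or 8 genes stands little apart from that share. At an unadjusted p below 0.05, edgeR had 6 of 7 ligands and 3 of 7 receptors higher. It also had 2 of 8 JAKs and other STATs and 6 of 13 other brakes higher, against 20.6% of all genes. The share of the JAKs and other STATs was near that background. Of 7 tested ligands of the interleukin-6 family, 2 rose, *Lif* and *Il11*, with a list median of 2.60. *Lif* had 20.7, 3.25 and 88.5 CPM at day 3, against 0.615, 0.461 and 0.125 CPM in sham, a log2 fold change of 6.54 ± 1.63 (adjusted p = 0.0443, edgeR). *Il11* had 13.6, 0.116 and 34.7 CPM at day 3 and no count in sham, which makes it at least 994-fold higher over the group, with sham set at 3 counts over its 3 libraries. Nearly all of its counts came from replicates 1 and 3. Of 7 tested receptors, *Osmr*, the receptor of oncostatin M, was the only one that passed, and it stands on the list of STAT3 targets as well. It had 79.7, 32.4 and 117 CPM at day 3, against 4.84, 6.44 and 5.98 CPM in sham, a log2 fold change of 3.73 (adjusted p = 0.0332, edgeR). Of 8 tested JAKs and other STATs, 1 rose, the kinase gene *Jak2*, with a log2 fold change of 1.35 (adjusted p = 0.0449, edgeR) and a list median of 0.43. Of 13 other brakes on STAT signalling, 2 rose, with a list median of 0.11. These were *Socs4*, with 1.27 (adjusted p = 0.0358, edgeR), and the phosphatase gene *Ptpn2*, with 1.69 (adjusted p = 0.0392, edgeR). Neither of the other *Pim* genes passed, although 1 was higher and 1 lower at an unadjusted p below 0.05 and by DESeq2 and limma voom. Both tools also called many genes of the table lower, as counted in the closing section. *Pim3* had a log2 fold change of 0.87 (adjusted p = 0.0637, edgeR) and *Pim2* one of -1.33 (adjusted p = 0.0971, edgeR).

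On the NF-kB side, 2 of the 4 other subunit genes rose, with a list median of 1.16. *Rel*, which encodes c-Rel, had a log2 fold change of 1.40 (adjusted p = 0.0463, edgeR) and *Rela*, which encodes p65, one of 1.08 (adjusted p = 0.0483, edgeR). Of 17 kinases and adaptors of the IKK complex and upstream of it, 4 rose, with a list median of 0.59. The 3 with the smallest p were *Irak4* at 1.47 (adjusted p = 0.0337, edgeR), *Myd88*, the adaptor of Toll-like and interleukin-1 receptors, at 2.20 (adjusted p = 0.0338, edgeR), and *Traf5* at 1.68 (adjusted p = 0.0387, edgeR). None of the 4 other IkB protein genes passed or had an unadjusted p below 0.05, DESeq2 and limma voom called none of them, and their median was 0.11, with *Nfkbie* at 0.21 (adjusted p = 0.307, edgeR) and *Nfkbil1* at -0.23 (adjusted p = 0.379, edgeR). None of 11 partners of A20 and other deubiquitinases passed, with a median of 0.70, although 6 were higher and 1 lower at an unadjusted p below 0.05. DESeq2 called 3 of them higher and limma voom 4, and each called 1 lower. Over all genes, 20.6% were higher at that unadjusted p, and DESeq2 and limma voom called 17.8% and 17.7% higher. Both tools also called many genes of the table lower, as counted in the closing section. The single lower gene is therefore not read as a trait of this list. *Tnip2* had 1.27 (adjusted p = 0.0629, edgeR) and *Zc3h12a*, which encodes an RNase that degrades inflammatory transcripts, had 1.88 (adjusted p = 0.0664, edgeR). In all, 24 of 106 tested list genes rose at day 3. With SCI day 3 replicates 1 and 3 left out none was called, and with replicate 2 left out 65 were, 61 of them higher. At days 7 and 14, edgeR called no gene of any of the 11 lists, while DESeq2 called 17 higher at day 7 and 1 at day 14, and limma voom called 2 at day 7 and none at day 14. Over all genes, DESeq2 called 2.6% higher at day 7 and 1.04% at day 14, and limma voom 1.39% and 0.0481%. At an unadjusted p below 0.05, 11 of 15 STAT3 targets were higher at day 7 and 6 at day 14, and 8 of 19 NF-kB targets were higher at day 7 and 1 at day 14. The shares over all genes were 7.76% at day 7 and 6.43% at day 14, so the single NF-kB target of day 14 was near the background. The list medians were 1.45 and 0.93 for the STAT3 targets, and 1.70 and 0.87 for the NF-kB targets, at days 7 and 14.

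**Figure D5:**
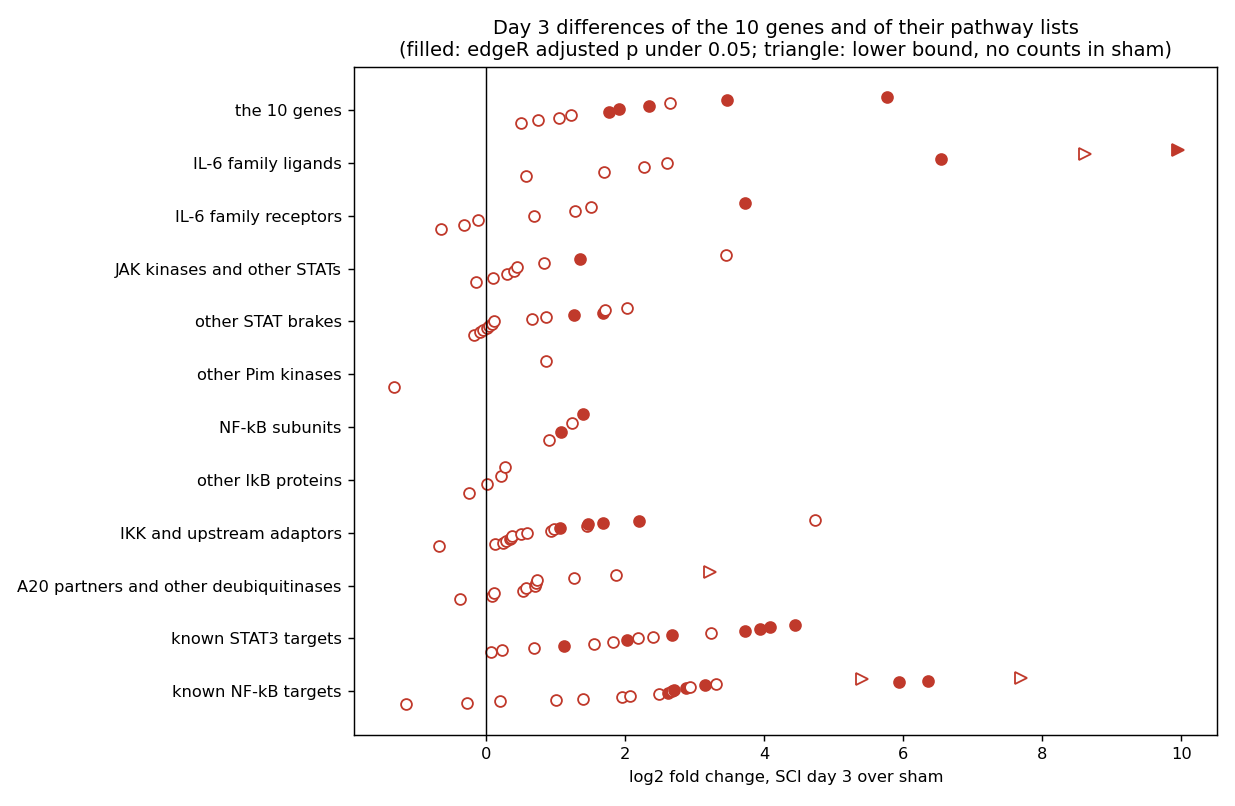
Log2 fold change at SCI day 3 against sham for the genes of each of the 11 pathway lists and of the 10 genes, 1 point per gene. Filled points have an adjusted p below 0.05, and triangles are lower bounds for genes with no counts in sham. The medians of the target lists, at 2.19 and 2.67, lie above that of all genes tested, at 0.03, and the other IkB proteins lie near 0.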

How the data were processed

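RNA was measured in 12 libraries of lumbar cord tissue. Per the labels' protocols, column-purified total RNA went into SMARTer mRNA libraries. The count columns, per the file headers, hold the authors' unnormalised reads per gene. Their deposited FPKM columns carry the authors' scaling by gene length and depth, and within a gene they followed the counts to within 0.404% over 9502 genes with more than 500 counts. The aligner, the counting tool and the strand setting were not given in the sources used here, so near-identical copies are uncertain. The submitters' processing notes list the mouse builds GRCm38 and mm10, while the gene IDs are rat Ensembl IDs. Sequences are RefSeq's on GRCr8, matched by symbol.

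Of 23526 genes, 18714 passed edgeR's filterByExpr and 4812 did not. Negative binomial models with 1 mean per group and TMM scaling were fitted to all 12 libraries in edgeR 4.0.16 (R 4.3.3), with 8 residual degrees of freedom, and tested by quasi-likelihood. The biological coefficient of variation was 0.432. P-values were adjusted by Benjamini-Hochberg over all genes tested, with a limit of 0.05. Each SE is the size of the fold change over the root of F, and so restates the test. FPKM values were used only to compare genes with each other. Replicates were distinct libraries: the chi-square per gene was at least 63.0 between any 2 of a group. The test was also run on simulated counts, drawn gene by gene with a fixed spread. That simulation held no shift of whole libraries, so it does not show how the test behaves under such shifts.

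The 10 genes and the 11 lists were chosen with earlier results of these data known. Of 115 list symbols, 5 had no match. From each list up to 3 genes with the smallest p among those that passed are named, or 2 where none passed. *Il6*, *Il11* at later days, *Ccl20* and *Cxcl2* were chosen after their values were seen. For each of the 10, the nearest genes are the tested genes with a symbol and the smallest distance, of which up to 3 are given. Alternatives were DESeq2 1.42.0, limma 3.58.1 voom with sample weights, DESeq2 size factors, no TMM, no filter, only the groups compared, a replicate block and each library left out. Leaving out libraries by their markers, and the counts over the lists under every alternative, were added after the data were seen. Floors and counts cover counting error only.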

Additional observations from a re-analysis of the deposited data

How the results depend on the processing

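Between the 10 genes and 3 comparisons with sham and 3 between days, 1260 alternative log2 fold changes were computed. Of these, 1235 kept their direction and 25 reversed, none of them in a comparison where that gene was called in the reported fit. The log2 fold change of *Socs1* at day 7 against sham was 0.018 without TMM, 0.014 without the filter and 0.016 with only the 2 groups in the fit. With libraries left out by their markers it was 0.18 (Schwann cell markers), 0.014 (sensory ganglion) and 0.78 (blood or muscle). Without the day 3 libraries low in neuronal transcripts, *Socs2* and *Tnfaip3* at day 3 were at -0.14 and -0.13. Without the sensory ganglion libraries, *Socs2* at day 14 was at -0.072. With single libraries left out, the fold changes that reversed spanned -0.66 to 0.34 for *Socs1* and -0.037 to 0.68 for *Tnfaip3* at day 7 against sham. At day 7 against day 3 they spanned -0.30 to 0.23 for *Socs2*, -1.09 to 0.12 for *Tnfaip3* and -1.68 to 0.0061 for *Bcl3*. At day 14 against day 7 they spanned -1.47 to 0.47 for *Nfkbiz* and -0.19 to 0.51 for *Relb*, and at day 14 against day 3 -0.47 to 0.063 for *Socs2* and -0.65 to 0.41 for *Tnfaip3*.

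The number of the 10 genes called at day 3 against sham, 5 in the reported fit, was 7 with DESeq2 and limma voom and 5 with DESeq2 size factors, without TMM and without the filter. It was 0 with only the 2 groups and with the replicate block, between 0 and 8 with each library left out, 0 without the neuron-poor libraries, 0 without those high in Schwann cell markers, 8 without those with ganglion transcripts and 1 without those with blood or muscle transcripts. At day 7 against sham it was 5 with DESeq2 and 2 with limma voom, at day 14 against day 3 it was 2 with DESeq2 and between 0 and 2 with single libraries left out, and at day 7 against day 3 it was between 0 and 1 with single libraries left out and 1 without the ganglion libraries.

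Of 106 list genes, 24 were called at day 3, against 57 with DESeq2, 59 with limma voom, 0 with only the 2 groups, 0 with the replicate block, 0 to 65 with single libraries left out, and 0, 0, 60 and 2 without the neuron-poor, Schwann, ganglion and blood or muscle libraries. At day 7 there were 17 with DESeq2 and 2 with limma voom, and at day 14 there was 1 with DESeq2.

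Over all genes, the 1254 calls of day 3 against sham became 5150 with DESeq2, 6232 with limma voom, 733 without the filter, 1 with only the 2 groups, 8 with the replicate block, 1 to 7087 with single libraries left out, and 1, 3, 6787 and 38 without the neuron-poor, Schwann, ganglion and blood or muscle libraries. Of them, 1030 were higher and 224 lower in the reported fit, against 2991 and 2159 with DESeq2 and 3312 and 2920 with limma voom. The 3 calls of day 7 became 513, 276, 89 and 1 with DESeq2, limma voom, only the 2 groups and the block, 1 to 7 with single libraries left out, and 0, 8 and 0 without the Schwann, ganglion and blood or muscle libraries. The 3 calls of day 14 became 207, 9, 0 and 1, then 1 to 3, and 1 each without the neuron-poor, Schwann and blood or muscle libraries. Between days the count of 0 became 245 with DESeq2, 1 with limma voom, 1 with the block, 0 to 3605 with single libraries left out and 3222 without the ganglion libraries at day 7 against day 3. It became 50 with DESeq2 at day 14 against day 7. At day 14 against day 3 it became 1096 with DESeq2, 0 to 4342 with single libraries left out and 2088 without the ganglion libraries. The cause of these changes was not tested.

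The replicate numbers did not pair the libraries: deviations from the group means correlated between -0.34 and 0.25 across 18 pairs with the same number, and 3 of 12 libraries were closest to one of their own number. The block left no call among the 10. Leaving out libraries leaves fewer samples, and a lone day 3 library was assumed to vary like the other groups.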

Other observations

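The cytokine genes *Il6*, *Il11*, *Cxcl2* and *Ccl20* had no count in any sham library, so their folds are given as lower bounds, with 3 counts assigned to the 3 sham libraries together. *Il6*, the ligand that names its family, had 2.24, 0.919 and 16.3 CPM in SCI day 3 replicates 1, 2 and 3. That made it at least 391.7-fold higher than sham over the group, although edgeR's quasi-likelihood test missed the threshold (adjusted p = 0.0507). The bound was 93.2-fold at day 7, with no count in replicate 1, and 21.1-fold at day 14. *Il11* had 13.6, 0.116 and 34.7 CPM at day 3, and its bound of 994-fold there compared with 37.8-fold at day 7. At day 14 it had 4 counts in all. The chemokine genes *Cxcl2* and *Ccl20*, which attract neutrophils and lymphoid cells, were at least 207-fold and 42.7-fold higher over the group at day 3. These bounds rest on 752 and 155 counts pooled over the day 3 libraries, and do not show how the libraries shared them. At day 7 the bounds were 32.5-fold for *Cxcl2* and 65.1-fold for *Ccl20*. At day 14, *Cxcl2* had 0 counts and *Ccl20* had 7 in all. These 4 genes were picked after their values were seen.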
